A study of Homo sapiens with 8 samples.

Results

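The mitochondrially encoded genes are those that the count table places on chrM, the human mitochondrial genome. All of them were taken, by that rule alone, and they number 37 of the 60659 genes used: 13 mRNA genes, 2 rRNA genes and 22 tRNA genes. Of the mRNA genes, 7 encode subunits of respiratory complex I (the MT-ND genes), 1 a subunit of complex III (MT-CYB), 3 encode subunits of complex IV (the MT-CO genes) and 2 encode subunits of the ATP synthase (MT-ATP6 and MT-ATP8). Symbols came from GENCODE release 44, and all 37 genes had the same start, end and strand there as in the count table.

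Mitochondria keep a small circular genome that is transcribed along both strands into long precursors. The tRNAs sit between most of the rRNAs and mRNAs, and cutting them out releases the others. The mRNAs encode core subunits of the respiratory chain, on which neurons depend heavily for ATP, and every protein that copies, transcribes or translates this genome is encoded in the nucleus.

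The cells were SK-N-SH, a human neuroblastoma line, in 4 groups with 2 biological replicates each, which makes 8 RNA libraries. All groups were given 10 μM all-trans retinoic acid (ATRA), for 24 h by the sample labels, which drives these cells towards neurons. In the overexpression experiment, cells carrying doxycycline-inducible FLAG-ZMYND8 from a lentiviral vector were compared with parental cells. Both groups received doxycycline (Dox), and the controls were parental cells, not cells with an empty vector. In the knockdown experiment, cells with shRNA-mediated knockdown of ZMYND8, a chromatin reader, were compared with KD control cells, and the labels name no Dox. Total RNA was depleted of ribosomal RNA before sequencing.

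Totals of counts on genes ran from 38316523 to 56256979 per library. ZMYND8 itself had 220691 and 182849 counts with overexpression against 3089 and 3612 in parental cells (log2 fold change 5.87 ± 0.0596 SE), and 1641 and 1640 in knockdown against 3128 and 3374 in KD control (−0.94 ± 0.0556 SE). Of 9 adrenergic neuroblastoma markers, 8 reached 1 CPM (count per 1000000 gene counts of the library) in at least 1 library and TH did not. All 5 mesenchymal markers reached it, and none of the 5 leukocyte, 4 epithelial and 2 hepatocyte markers did, although the labels describe the cells as epithelial. The summed levels of both neuroblastoma lists did not overlap between the groups of either experiment. The adrenergic markers summed to 297 to 300 CPM in the parental cells and 924 to 982 with overexpression, and to 680 to 720 in KD control and 519 to 578 in knockdown. The mesenchymal markers summed to 5420 to 5470 CPM and 2290 to 2500 in the first experiment and to 2890 to 2910 and 3280 to 3510 in the second. Their part in the chrM values that follow was not tested. P-values below rest only on the spread between the 2 libraries of each group. For each gene, that spread is drawn towards the spread of the other genes tested.

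The 4 sequences below are tRNA genes from the hg38 reference, each 5′ to 3′ on its own strand with the anticodon in capitals, shown because the genes of the plus strand and those of the minus strand had different summed levels in the results that follow. MT-TW (tRNA for tryptophan, chrM:5512-5579) and MT-TT (threonine, chrM:15888-15953) lie on the plus strand. MT-TQ (glutamine, chrM:4329-4400) and MT-TP (proline, chrM:15956-16023) lie on the minus strand.
MT-TW: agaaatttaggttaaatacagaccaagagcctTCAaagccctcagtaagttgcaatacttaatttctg
MT-TT: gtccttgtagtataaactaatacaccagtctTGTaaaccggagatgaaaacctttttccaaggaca
MT-TQ: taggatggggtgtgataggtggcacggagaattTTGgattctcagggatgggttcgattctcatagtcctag
MT-TP: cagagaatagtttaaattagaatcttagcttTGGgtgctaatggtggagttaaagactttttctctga

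Genes on chrM are packed with almost no space between them, and some share bases. MT-ATP8 (chrM:8366-8572) and MT-ATP6 (chrM:8527-9207) share 46 bases of the plus strand, in capitals here with their flanks (chrM:8510-8589), and a fragment there can be assigned to neither gene.
MT-ATP8/MT-ATP6 overlap: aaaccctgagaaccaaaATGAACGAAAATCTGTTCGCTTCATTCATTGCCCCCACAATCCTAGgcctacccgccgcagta
MT-ND4L and MT-ND4 share 7 bases, MT-ATP6 and MT-CO3 share 1, and of the tRNA genes MT-TI and MT-TQ share 3 bases on opposite strands and MT-TC and MT-TY share 1 on the minus strand. Levels per length of MT-ATP8 (207 bases) and MT-ND4L (297 bases) are therefore less certain than those of longer genes.

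Copies of mitochondrial DNA in the nuclear chromosomes can take or lose reads. The mRNA gene with the highest count, MT-CO1 (chrM:5904-7445), matched the pseudogene MTCO1P12 on chromosome 1 at 98.7% of 1542 aligned bases, with 20 differences. Of all stretches of 100 bases in MT-CO1, 27.9% also occur without a mismatch on a nuclear chromosome. That share was 26.1% for MT-ND2, 21.2% for MT-RNR1, 11.9% for MT-ATP6, 10.97% for MT-ND1, 4.67% for MT-CO3 and 2.39% for MT-CO2, and it was 0 for MT-RNR2, MT-ND3, MT-ND4L, MT-ND4, MT-ND5, MT-ND6, MT-CYB and MT-ATP8. MTCO1P12 itself had 337 to 420 counts per library in the knockdown experiment, equal to 0.0701% to 0.0842% of the MT-CO1 count, and 112 to 199 in the overexpression experiment, equal to 0.248% to 0.361%. MTCO1P12 was named after its values were seen.

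The first question was how much of each library came from the mitochondrial genome. In the knockdown experiment, chrM genes took 2.96% and 2.92% of all gene counts in KD control and 3.05% and 3.41% in the knockdown. In the overexpression experiment they took 0.1097% and 0.163% in parental cells, and the values with overexpression were 0.128% and 0.168%. Every library of the knockdown experiment was far above every library of the overexpression experiment. The widest Wilson 95% interval reached 0.00476 percentage points to either side, and it covers counting error only. The spread between replicates was many times larger than that: the higher replicate was 1.01 times the lower in KD control, 1.12 times in knockdown, 1.31 times with overexpression and 1.49 times in the parental cells.

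**Figure D1:**
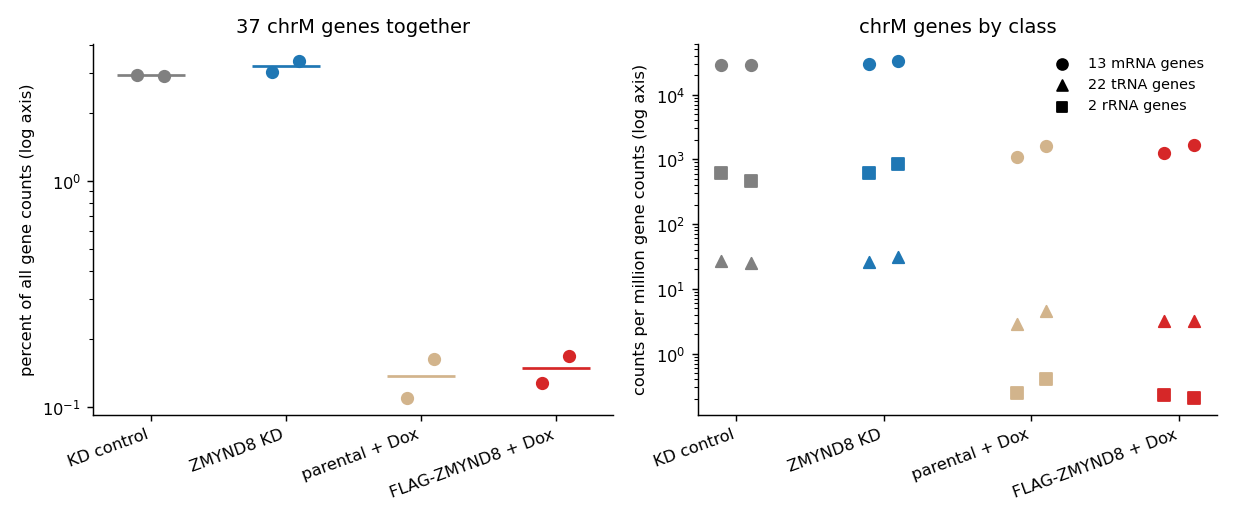
Left, percent of all gene counts on the 37 chrM genes in each library, on a log axis, with each point 1 library and each line the mean of a group (n = 2). Right, CPM on the mRNA, tRNA and rRNA genes of chrM, on a log axis. The KD control and ZMYND8 knockdown libraries sit at 2.92% to 3.41% and the parental and ZMYND8 overexpression libraries at 0.1097% to 0.168%, and the rRNA genes differ most between the experiments.

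Within each experiment the groups lay far closer together. The mean share was 3.23% ± 0.251 (SD, n = 2) in knockdown against 2.94% ± 0.0251 in KD control, a log2 ratio of 0.14, and the groups did not overlap. It was 0.148% ± 0.0283 with overexpression against 0.136% ± 0.0378 in the parental cells, a log2 ratio of 0.12, and the groups overlapped. No test was made on these single values, and an exact permutation test of 2 against 2 libraries cannot give a two-sided p below 0.333. In bulk RNA, more mitochondrial genomes per cell, more RNA per genome and another mixture of cells cannot be told apart. Divided by the effective library sizes of TMM, a scaling that leaves out genes with extreme ratios, in place of total counts, the overexpression ratio turned to −0.14.

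The control groups of the experiments were compared next, as a description. KD control had a 21.5-fold higher chrM share than the parental cells (log2 ratio 4.43). The knockdown controls and the parental cells differ in experiment, Dox, vector and library batch at the same time, which cannot be told apart, so no test was made and the gap is treated as a batch. It was not even across the genes. The 12 mRNA genes of the plus strand had log2 ratios of mean CPM from 3.27 (MT-CO1) to 7.58 (MT-ATP8), with a median of 5.67. MT-ND6, the only mRNA gene of the minus strand, had 2.34.

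Both rRNA genes had the widest gap. MT-RNR1, the rRNA of the small mitochondrial ribosome subunit (chrM:648-1601), had 10542 and 8643 counts in KD control, 12099 and 15858 in knockdown, 3 and 5 in the parental cells and 7 and 4 with overexpression. MT-RNR2, the rRNA of the large subunit (chrM:1671-3229), had 22473 and 17549 counts in KD control, 22332 and 32115 in knockdown, 8 and 17 in the parental cells and 4 and 4 with overexpression. The rRNA genes together thus gave 466 to 861 CPM in the knockdown experiment and 0.209 to 0.405 in the overexpression experiment, in libraries whose mRNA genes gave 28709 to 33206 and 1093 to 1675. The pooled count ratio of KD control to parental was 2146 for MT-RNR1 (95% interval for counting error 1090 to 4970) and 1433 for MT-RNR2 (971 to 2210). RNA in both experiments was depleted of rRNA, and the part of that step in the gap was not tested.

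The summed tRNA genes differed by strand. Of the 14 on the plus strand, 7 had 0 counts in both parental libraries and 5 of those had 0 in all 4 libraries of the overexpression experiment, whereas none of the 8 on the minus strand was at 0 in both parental libraries. Over both KD control libraries these 7 had from 1 (MT-TL1) to 128 (MT-TM) counts, so some were low there too. Summed over the genes, the plus strand tRNAs were 15.7-fold higher in KD control than in the parental cells (16.7 against 1.06 CPM) and the minus strand tRNAs 3.45-fold (9.07 against 2.63). In KD control the plus strand sum was thus the larger, and in the parental cells the minus strand sum was. Counts behind these sums are low: the 22 genes together had 1404 to 1724 counts per library in the knockdown experiment and 124 to 244 in the overexpression experiment.

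Of the tRNA genes printed above, MT-TW had 260 and 217 counts in KD control and 5 and 6 in the parental cells. MT-TT had 431 and 417 in KD control and 25 and 57 in the parental cells, the highest counts of any tRNA gene in KD control. On the minus strand, MT-TQ had 133 and 145 against 25 and 40, and MT-TP 165 and 162 against 19 and 37. The log2 gaps were 5.28, 3.25, 1.96 and 2.42 in that order. Across the genes with a value, those on the minus strand lay between 0.67 (MT-TA, alanine) and 3.42 (MT-TC, cysteine). The 7 plus strand tRNA genes with a value lay between 2.52 (MT-TH) and 5.28 (MT-TW), so the strands overlapped gene by gene.

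**Figure D2:**
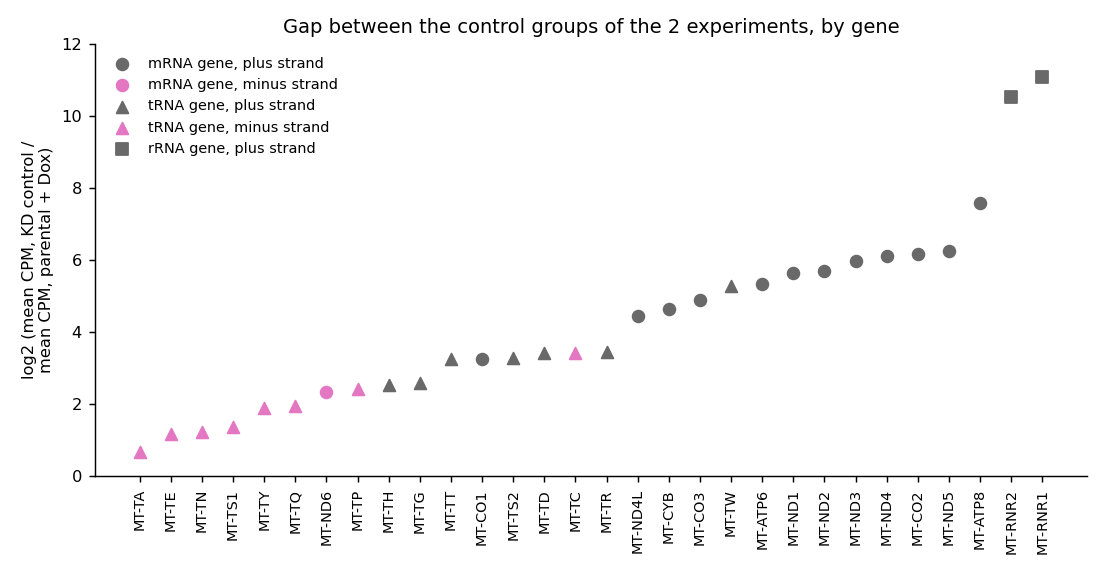
Each point is 1 chrM gene, ordered by the log2 ratio of its mean CPM in KD control to that in the parental cells (vertical axis, n = 2 libraries each). Shape marks the class and colour the strand, and genes at 0 in both parental libraries are left out. MT-RNR1 and MT-RNR2 have the highest values (11.09 and 10.53), and the lowest values, from MT-TA at 0.67 to MT-TP at 2.42 with MT-ND6 at 2.34 among them, are all of minus strand genes.

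Minus strand genes made up 0.490% to 0.546% of chrM counts in the knockdown experiment, 2.07% and 2.46% in the parental libraries and 1.26% and 1.22% with overexpression. A library property moved with the first of these gaps. In the count table, genes that lie wholly inside the exons of an abundant gene on the same strand were at 0 in 98.6% (overexpression experiment) and 95.9% (knockdown experiment) of 440 cases, whereas genes inside exons on the other strand were at 0 in 10% and 21.2% of 339 cases, so the counting used the strand. The 339 genes on the other strand had a summed level per length of 1.33% to 1.51% of their hosts in the libraries of the knockdown experiment and 12.04% to 12.6% in those of the overexpression experiment. Its part in the level of the minus strand genes was not tested. Between the parental libraries (12.1% and 12.1%) and the overexpression libraries (12.04% and 12.6%) this level was nearly the same.

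Other abundant RNAs that are not mRNAs differed far less between the experiments. RN7SL1, the RNA of the signal recognition particle, had 13470 to 17460 CPM in the knockdown experiment and 10550 to 16970 in the overexpression experiment. MALAT1 and NEAT1, nuclear noncoding RNAs, had 6219 to 7370 against 3171 to 4467 and 299 to 478 against 253 to 441. The cytoplasmic 5.8S rRNA genes RNA5-8SN3 and RNA5-8SN1 had 120 to 180 against 34.2 to 71.2 and 30.1 to 51.7 against 5.29 to 13, a gap that was small beside that of the mitochondrial rRNAs. The summed nuclear copies of mitochondrial DNA (404 genes in the table) went with chrM, at 160 to 200 CPM (8968 to 11128 counts) against 10.97 to 14.03 (475 to 762 counts). Of these, MTND2P28 had 94.7 to 114 against 2.81 to 3.83 and MTATP6P1 had 48.4 to 68.0 against 2.81 to 4.99.

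The mixture of mRNAs was compared as counts per kilobase of each gene, as a percent of the sum over the 13 genes, which does not depend on the total share. In KD control, MT-CO1 had 19.7% and 18.8% of the pool, MT-CO2 13.37% and 13.5%, MT-CO3 13.36% and 13.02%, MT-ND4 9.79% and 9.94%, MT-ND3 7.72% and 7.60%, MT-ND1 6.68% and 6.58%, MT-ATP6 6.45% and 6.69%, MT-ND2 5.87% and 6.09%, MT-CYB 5.60% and 5.58%, MT-ND5 4.14% and 4.24%, MT-ATP8 3.33% and 3.81%, MT-ND4L 3.08% and 3.17%, and MT-ND6 0.925% and 0.978%. In that order, MT-ND1 and MT-ATP6 overlapped between replicates and the other neighbours did not. MT-CO1, a catalytic subunit of complex IV, led in all 4 groups.

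In the parental libraries the pool was dominated by MT-CO1, at 49.1% and 52.0%. MT-CO3 followed with 12.1% and 10.8%, then MT-CYB with 5.63% and 5.80%, and MT-ND6, last in KD control, ranked 5 of 13 with 4.19% and 5.16%. MT-ATP8 was last, at 0.463% and 0.483%. MT-ND5 was at 1.41% and 1.39%, MT-ND4 at 3.57% and 3.59% and MT-CO2 at 5.26% and 4.42%, all under their shares in KD control. MT-CYB was the gene whose share was most alike in the control groups.

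Within the overexpression experiment, the pool shifted towards MT-CO1, which had 56.5% and 56.4% with overexpression, above both parental libraries. MT-CO3 was also above the parental libraries, at 12.7% and 12.6%. The groups did not overlap for 9 other genes, all lower with overexpression, and overlapped for MT-CO2 and MT-ND3. Over all genes tested, counts over those of the 13 mRNA genes did not overlap for 46.4%. This is not a like background, because genes outside the pool carry the spread of the chrM share between replicates. The percents of a library also have a fixed sum, so a higher share of MT-CO1 lowers those of the other genes. The furthest from the parental values was MT-ND6, the complex I subunit encoded on the minus strand, at 2.56% and 2.59% (log2 ratio of means −0.86). MT-ND4L, a small membrane subunit of complex I, was at 2.19% and 2.16%, against 3.50% and 3.69% in the parental cells (−0.72).

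In the knockdown experiment the pool was steadier. Of the 13 genes, 4 were higher in both knockdown libraries than in both KD control libraries, 4 were lower and 5 overlapped. Counts over those of the 13 mRNA genes did not overlap for 63.7% of all genes tested, which is again not a like background. The higher ones were complex I genes: MT-ND1 at 7.19% and 7.49%, MT-ND2 at 6.53% and 6.40%, MT-ND3 at 8.25% and 8.27%, and MT-ND4L at 3.28% and 3.51%. The lower ones were MT-CYB, at 5.02% and 5.08% (log2 ratio −0.15), MT-CO3, MT-ND4 and MT-ND5. MT-CYB encodes cytochrome b of complex III.

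**Figure D3:**
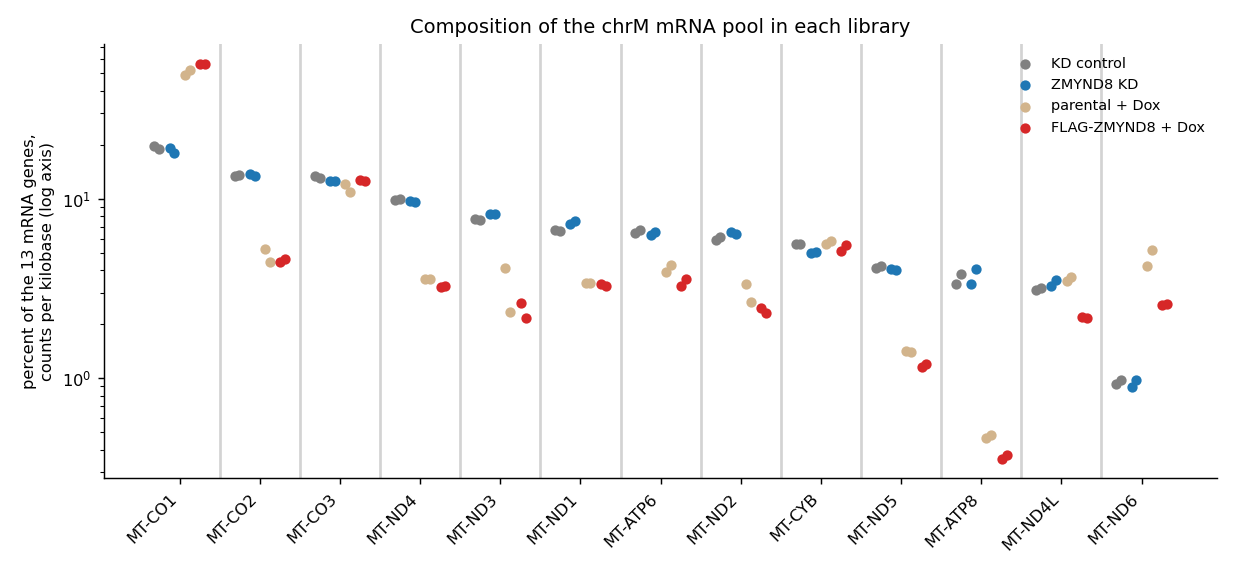
Percent of the chrM mRNA pool (counts per kilobase of each of the 13 genes over their sum, log axis) for each gene in each library, with each point 1 library and colour the group. MT-CO1 takes 18.1% to 19.7% in the knockdown experiment and 49.1% to 56.5% in the overexpression experiment, and MT-ND6 and MT-ND4L are lower with ZMYND8 overexpression than in the parental libraries.

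Next, each gene was tested within its experiment, on counts normalized with TMM, with edgeR's quasi-likelihood test and Benjamini-Hochberg adjustment over all genes tested. A gene is said to have changed, risen or fallen at an adjusted p below 0.05, and to be called if its log2 fold change was also 1 or more in size and its mean normalized count over 20.

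With ZMYND8 overexpression, 5 of the 7 complex I mRNAs fell. Of the 37 chrM genes, 18 had enough counts to be tested, and 6 of them fell while none rose: MT-ND2, MT-ND3, MT-ND4L, MT-ND5, MT-ND6 and the tRNA gene MT-TS1 (serine). MT-ND1 and MT-ND4 of complex I did not pass, and none of the 3 complex IV genes, the complex III gene or the 2 ATP synthase genes passed the test. This split is by passing and not by size. The ATP synthase genes MT-ATP8 (log2 fold change −0.60) and MT-ATP6 (−0.48) were lower than MT-ND5 (−0.45), which passed. Of all genes tested, 60.8% changed and 29.1% fell. The share of the chrM genes that changed (33.3%), all lower, was thus under the first and near the second. The median log2 fold change was −0.45 over the 18 genes and 0.03 over all genes tested.

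MT-ND6 (chrM:14149-14673, minus strand) had normalized counts of 1027 and 1852 in the parental cells and 586 and 767 with overexpression. All values with overexpression lay below the parental ones, and the parental libraries differed widely between themselves. It fell by 1.10 on the log2 scale (± 0.224 SE, edgeR adjusted p = 0.00155) and was the only chrM gene called, where 18.6% of all genes tested were called and 6.84% were called lower. Its log2 fold change ran from −1.47 to −0.61 when 1 library was left out. It was under the size of 1 needed for the call without replicate 2 of the parental cells (−0.61), without replicate 1 of overexpression (−0.91) and with total counts (−0.85). Normalized counts did not overlap between the groups for 7 of the 18 chrM genes and for 80.3% of all genes tested. MT-ND4L (chrM:10470-10766) had 485 and 749 in the parental cells and 284 and 362 with overexpression, without overlap, and fell by 0.95 on the log2 scale (± 0.19 SE, edgeR adjusted p = 0.00142).

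MT-ND3 (chrM:10059-10404), another membrane subunit of complex I, had normalized counts of 666 and 554 in the parental cells and 395 and 422 with overexpression. MT-ND2 (chrM:4470-5511), also of the membrane arm, had 1628 and 1886 in the parental cells and 1114 and 1364 with overexpression. Neither overlapped between the groups, and in contrast to MT-ND6 the parental values were close together. The log2 fold changes were −0.58 ± 0.113 (SE, edgeR adjusted p = 0.00119) for MT-ND3 and −0.51 ± 0.0986 (edgeR adjusted p = 0.00113) for MT-ND2. MT-ND5 (chrM:12337-14148) had 1192 and 1727 against 917 and 1233, so that 1 overexpression library lay above 1 parental library, with a log2 fold change of −0.45 (edgeR adjusted p = 0.0351). MT-ND5 did not pass with DESeq2 (adjusted p = 0.268), nor in edgeR with total counts (adjusted p = 0.298) or upper quartile factors (0.0695), nor without replicate 1 of overexpression (0.136) or replicate 2 of the parental cells (0.325). MT-TS1 had only 26 and 28 against 14 and 11 normalized counts (log2 fold change −1.07, edgeR adjusted p = 0.0231). Like MT-ND5, it did not pass with DESeq2 or, in edgeR, with total counts.

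**Figure D4:**
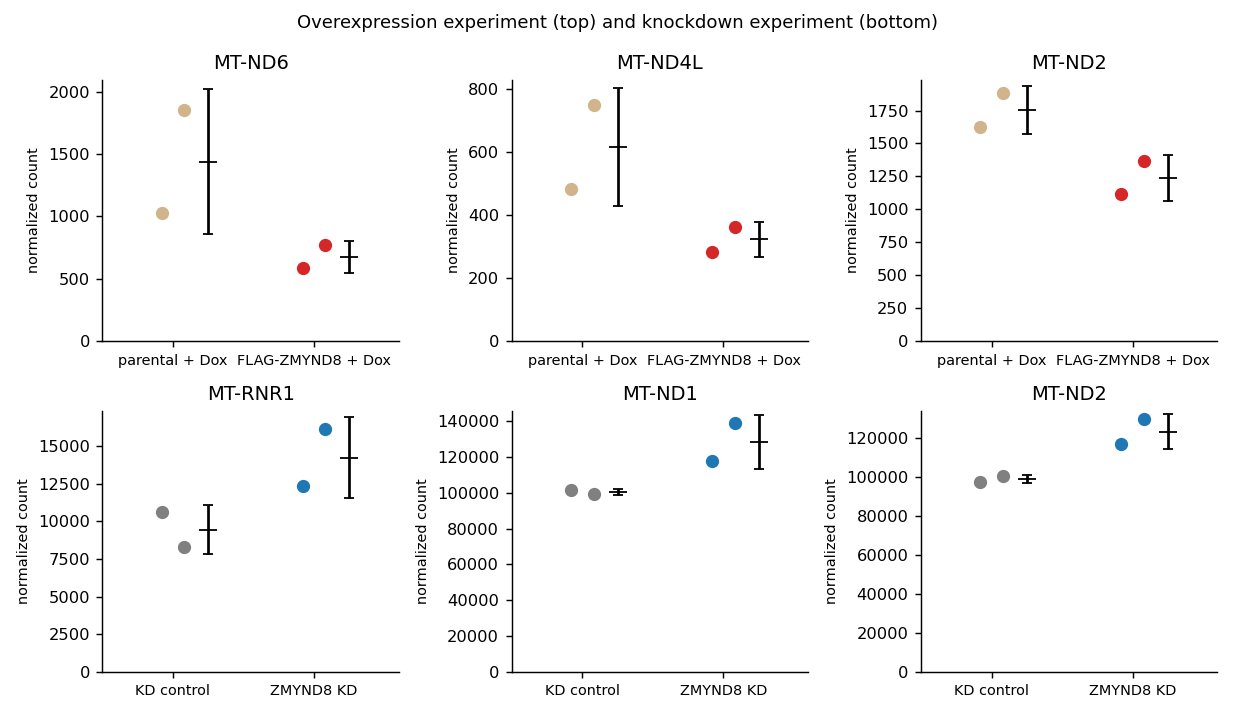
Normalized counts per library (points) with the mean and SD of each group (black, n = 2), from 0. Top, MT-ND6, MT-ND4L and MT-ND2 in the overexpression experiment, each lower in both ZMYND8 overexpression libraries. Bottom, MT-RNR1, MT-ND1 and MT-ND2 in the knockdown experiment, each higher in both ZMYND8 knockdown libraries.

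The other mRNA genes did not pass the test with overexpression. MT-CO1 had 35282 and 54820 normalized counts in the parental cells and 37920 and 48993 with overexpression, and MT-CO3 had 4413 and 5809 against 4334 and 5571. Both overlapped, with log2 fold changes of −0.05 ± 0.17 and −0.05 ± 0.128 (SE). MT-ND4 had −0.36 ± 0.159, MT-CYB −0.31 ± 0.177, MT-CO2 −0.28 ± 0.127, MT-ND1 −0.25 ± 0.154, MT-ATP6 −0.48 ± 0.194 and MT-ATP8 −0.60 ± 0.292. For MT-ND4 the adjusted p of edgeR was 0.0769 and for MT-ATP6 it was 0.0544, both near the threshold.

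All 18 genes tested had a negative log2 fold change, but with total counts in place of TMM, which moved the median of all genes by 0.25, MT-ND1, MT-CO1, MT-CO3 and MT-TT turned to 0.01, 0.21, 0.21 and 0.18, and with upper quartile factors MT-CO1, MT-CO3 and MT-TT lay at 0.03, 0.03 and 0.00, and with scaling by the 13 mRNA genes (a shift of 0.11) at 0.09, 0.08 and 0.12. MT-ND2, MT-ND3, MT-ND4L and MT-ND6 remained lower at an adjusted p below 0.05 (edgeR or DESeq2) under each alternative run except scaling by the 13 chrM mRNA genes, under which none of the 6 passed. With that scaling their log2 fold changes were −0.40, −0.50, −0.79 and −0.92 in that order, with standard errors of 0.456, 0.447, 0.448 and 0.456. MT-CO1 and MT-CO3 had like standard errors there (0.446 and 0.467). That scaling puts the spread of the chrM share between replicates into all other genes, so it could hardly pass changes of this size and decides nothing about these genes. As shares of the mRNA pool, MT-ND2, MT-ND4L and MT-ND6 did not overlap between the groups and MT-ND3 did. Leaving out 1 library moved the count of 6. Without replicate 1 of the parental cells 13 chrM genes changed and without replicate 2 of overexpression 10 did, all lower, whereas without replicate 1 of overexpression 4 did, and without replicate 2 of the parental cells 5 did, 1 higher and 4 lower. The higher one was MT-CO1, which rose without replicate 2 of the parental cells (log2 fold change 0.29, edgeR adjusted p = 0.0254) and fell without replicate 1 of the parental cells (−0.35, edgeR adjusted p = 0.0197).

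In the ZMYND8 knockdown, both rRNA genes and part of the mRNA genes were higher. Of the 33 chrM genes tested, 7 rose and none fell: MT-RNR1, MT-RNR2, MT-ND1, MT-ND2, MT-ND3, MT-ND4L and MT-CO2. None was called, where 1.96% of all genes tested were, 1.36% as higher and 0.596% as lower. Normalized counts did not overlap for 20 of the 33, and for 61.6% of all genes tested. Of all genes tested, 24.3% changed and 13.4% rose. The share of the chrM genes that changed, 21.2%, all higher, was thus under the first and above the second, and the difference was not tested. At an unadjusted p below 0.05 there were 16 chrM genes. The median log2 fold change was 0.17 over the 33 genes and −0.01 over all genes tested.

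MT-RNR1 had normalized counts of 10601 and 8308 in KD control and 12316 and 16117 in knockdown, and MT-RNR2 22598 and 16869 against 22732 and 32640. Neither overlapped, although the lower MT-RNR2 value in knockdown was barely above the higher one in KD control. The log2 fold changes were 0.59 ± 0.125 (SE, edgeR adjusted p = 0.00627) and 0.49 ± 0.156 (edgeR adjusted p = 0.0436). Both rRNAs are what remained after rRNA depletion, so these levels also carry how much was removed from each library, and the part of that step was not tested. RNA5-8SN3, a cytoplasmic 5.8S rRNA gene, had 180 and 120 CPM in KD control and 125 and 175 in knockdown. RNA5-8SN1, also of the 5.8S rRNA, had 30.14 and 36.97 CPM in KD control and 35.08 and 51.7 in knockdown. Both genes overlapped between the groups. The highest value of RNA5-8SN1 was in replicate 2 of the knockdown, as for MT-RNR1 and MT-RNR2, and that of RNA5-8SN3 was in KD control.

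Among the complex I genes, MT-ND1 (chrM:3307-4262) had 101713 and 99395 normalized counts in KD control and 117876 and 139272 in knockdown. MT-ND2 had 97524 and 100246 against 116748 and 129598, and MT-ND3 had 42566 and 41551 against 48962 and 55626. For each of them the KD control libraries were close together and both knockdown libraries lay above, with replicate 2 the higher. The log2 fold changes were 0.35 ± 0.075 for MT-ND1 (SE, edgeR adjusted p = 0.0062), 0.32 ± 0.0628 for MT-ND2 (edgeR adjusted p = 0.00427), 0.31 ± 0.0654 for MT-ND3 (edgeR adjusted p = 0.00564) and 0.33 ± 0.0779 for MT-ND4L (edgeR adjusted p = 0.0117).

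MT-CO2 (chrM:7586-8269), the complex IV subunit that takes electrons from cytochrome c, had 145734 and 145891 normalized counts in KD control and 160167 and 178073 in knockdown (log2 fold change 0.21 ± 0.0631 SE, edgeR adjusted p = 0.0318). The 8 mRNA genes that did not pass had log2 fold changes from 0.06 (MT-CYB) to 0.27 (MT-ATP8). MT-ND6, at 7736 and 8115 against 8010 and 9935, overlapped between the groups. With scaling by the 13 mRNA genes, which moved the median of all genes by −0.18, MT-CO1, MT-CO3, MT-ATP6, MT-ND4, MT-ND5, MT-ND6 and MT-CYB turned to −0.03, −0.05, −0.02, −0.01, −0.03, −0.01 and −0.13.

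No tRNA gene passed the test in the knockdown. MT-TY (tyrosine, minus strand), chosen after its values were seen, was near the threshold, with 30.2 and 30.8 normalized counts in KD control and 14.3 and 16.3 in knockdown (log2 fold change −0.99 ± 0.329 SE, edgeR adjusted p = 0.0512). It fell and was called with upper quartile factors (−1.01, edgeR adjusted p = 0.0475), with total counts (−1.05, edgeR adjusted p = 0.0391) and with scaling by the mRNA genes (−1.18, edgeR adjusted p = 0.0163). MT-TW had 261 and 209 normalized counts in KD control and 290 and 347 in knockdown (log2 fold change 0.44 ± 0.152 SE), and MT-TT 433 and 401 against 488 and 559 (0.33 ± 0.11 SE), both without overlap. The other 20 tRNA genes had 0 to 190 counts per library in this experiment and 0 to 40 in the overexpression experiment. Of the 18 tRNA genes tested in the knockdown, 10 had a positive and 8 a negative log2 fold change, with a median of 0.03. Of the 7 genes that rose, MT-RNR1 and MT-RNR2 still passed with scaling by the mRNA genes and did not with DESeq2 (adjusted p 0.0783 and 0.306), while MT-ND2 passed under each alternative run except scaling by the mRNA genes. Without replicate 2 of KD control 1 chrM gene changed, and without replicate 1 of the knockdown 17 did.

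**Figure D5:**
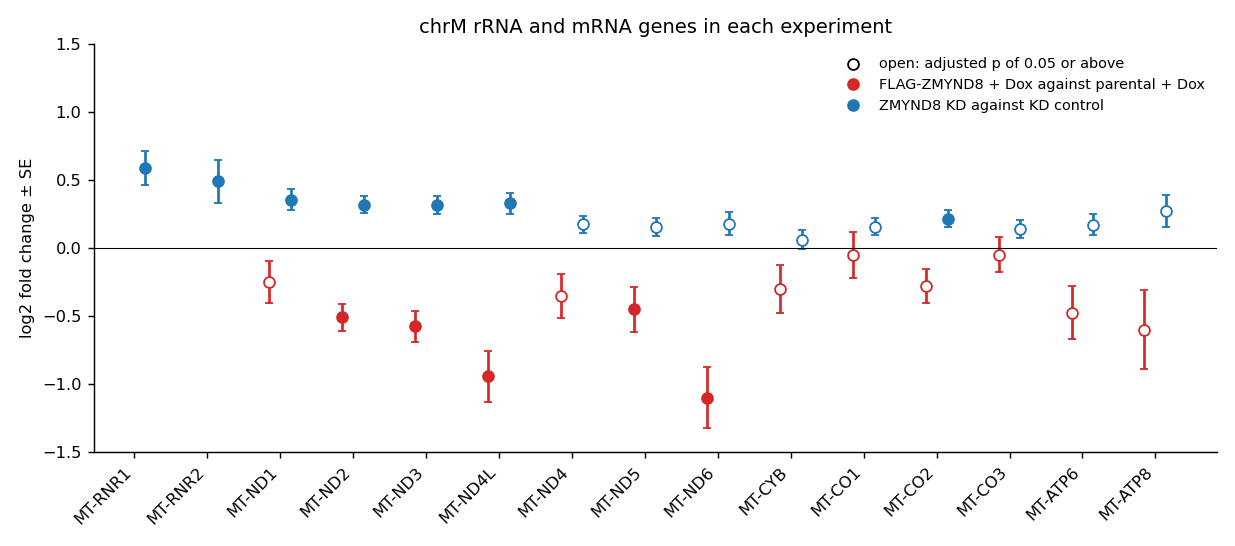
Log2 fold change with its SE for the rRNA and mRNA genes of chrM in the overexpression (red) and knockdown (blue) experiments. Filled points passed edgeR's test at an adjusted p below 0.05, and the rRNA genes were not tested in the overexpression experiment. The 5 filled red points are complex I genes between −0.45 and −1.10 and the 7 filled blue points lie between 0.21 and 0.59, on TMM normalized counts, and of the red points MT-CO1 and MT-CO3 turn positive with total counts, upper quartile factors or scaling by the mRNA genes and MT-ND1 with total counts.

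The overexpression and knockdown effects share no control library, and their difference was tested in a model of all 8 libraries. It passed for 12 of the 33 chrM genes tested, with the overexpression effect the lower in each, where 49.0% of all genes tested passed and 24.4% passed in that direction. In the overexpression experiment alone only 18 chrM genes had enough counts to be tested. The others of the 33 entered this model through the higher counts of the knockdown experiment, MT-TW and MT-TE of the 12 among them. Of the 12, 5 were called, where 18.7% of all genes tested were called and 7.65% were called lower. All 7 complex I genes were among the 12. For MT-ND4L the difference was −1.29 ± 0.21 (log2, SE, edgeR adjusted p = 0.000119), for MT-ND6 −1.29 ± 0.263 (edgeR adjusted p = 0.000846), for MT-ND3 −0.90 ± 0.125 (edgeR adjusted p = 2.66e-05) and for MT-ND2 −0.83 ± 0.125 (edgeR adjusted p = 5.42e-05). MT-ND2, MT-ND3 and MT-ND4L fell with overexpression and rose in the knockdown, MT-ND6 fell with overexpression and did not pass in the knockdown.

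MT-ND1, MT-ND4, MT-ND5, MT-CO2 and MT-ATP6 had differences from −0.50 to −0.66. All 13 mRNA genes had a negative difference, so the sign was not particular to complex I. For MT-CO1 the difference was −0.21 ± 0.209, for MT-CO3 −0.19 ± 0.165 and for MT-CYB −0.37 ± 0.216 (log2, SE), and none of these passed. MT-ATP8 did not pass either (edgeR adjusted p = 0.079), although its difference of −0.90 ± 0.403 was of the size of that of MT-ND3. With DESeq2 7 genes passed, with total counts 6 and with scaling by the mRNA genes 1, the tRNA gene MT-TW. Without replicate 2 of the parental cells or replicate 2 of the knockdown 5 passed, and without replicate 1 of overexpression 7 did, while MT-ND2, MT-ND3, MT-ND4L and MT-ND6 passed in every fit that left out 1 library.

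Nuclear genes that maintain, transcribe, process and translate the mitochondrial genome were described from lists of known members. Of 147 genes, 144 were tested in each experiment. With overexpression 27 rose (18.8%) and 40 fell (27.8%), where 31.7% of all genes tested rose and 29.1% fell. In the knockdown 24 rose (16.7%) and 7 fell (4.86%), where 13.4% of all genes tested rose and 10.8% fell. The shares that fell with overexpression and rose in the knockdown were thus near the background, and nothing is read from the counts of the single lists, which are given as a description. The medians were −0.05 and 0.07 on the log2 scale, beside 0.03 and −0.01 over all genes tested. Of the 6 transcription genes, which include the mitochondrial RNA polymerase POLRMT and TFAM, none rose and 2 fell with overexpression, and 2 rose and none fell in the knockdown. Of the 11 genes for RNA stability, polyadenylation and decay, 3 rose and 6 fell with overexpression, and 1 rose in the knockdown. The genes for transcript cleavage (6), for rRNA and tRNA modification (12) and for translation factors (12) had 3, 2 and 2 that rose and 1, 3 and 3 that fell with overexpression, and 0, 1 and 2 that rose and 0, 1 and 2 that fell in the knockdown. Of the 47 tested proteins of the large mitochondrial ribosome subunit, 5 rose and 14 fell (29.8%, about the share of all genes tested) with overexpression, and 5 rose (10.6%) and 1 fell in the knockdown. Of the 32 of the small subunit, 7 rose and 6 fell with overexpression, and 7 rose and 1 fell in the knockdown.

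Of 6 regulators of mitochondrial biogenesis, 2 rose and 2 fell with overexpression, and 2 rose and 1 fell in the knockdown. The largest change in these lists was that of PPARGC1A, a coactivator that drives mitochondrial biogenesis. It had normalized counts of 36.9 and 31.4 in the parental cells and 2582 and 2877 with overexpression (log2 fold change 6.33 ± 0.115 SE, edgeR adjusted p = 4.21e-11). In the knockdown experiment it had 174 and 217 in KD control and 106 and 124 in knockdown (−0.77 ± 0.176 SE, edgeR adjusted p = 0.00965). Its partner ESRRA, an orphan nuclear receptor, also rose with overexpression, from 1964 and 2090 to 3021 and 3160 (log2 fold change 0.61).

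Of 12 genes for the upkeep of mitochondrial DNA, 3 rose and 3 fell with overexpression (25% each, under the shares of all genes tested), and 4 rose and 1 fell in the knockdown. TK2, the mitochondrial thymidine kinase, had 2565 and 2884 normalized counts in the parental cells and 1206 and 1337 with overexpression (log2 fold change −1.10 ± 0.0732 SE, edgeR adjusted p = 3.51e-07). RRM2B, a ribonucleotide reductase subunit, had 8185 and 7729 against 4120 and 4196 (−0.94) and also fell in the knockdown, from 8231 and 8210 to 6475 and 6526 (−0.34). MRPL24, of the large mitochondrial ribosome subunit, fell from 1423 and 1194 to 720 and 704 (−0.87), and FASTKD1, of a family that acts on mitochondrial RNA, rose from 786 and 802 to 1189 and 1252 (0.62).

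In the knockdown, TFB1M, the methyltransferase that modifies the MT-RNR1 rRNA, fell from 1815 and 1905 to 891 and 929 normalized counts (log2 fold change −1.03 ± 0.0688 SE, edgeR adjusted p = 4.61e-06). It was the only gene of these lists called there. MT-RNR1 rose in the same libraries, as given above, and a link between these changes was not tested. TOP1MT, the mitochondrial topoisomerase, rose from 992 and 1036 to 1481 and 1511 (0.56), PPARGC1B from 304 and 337 to 489 and 445 (0.54) and MRPL57 from 986 and 925 to 1253 and 1270 (0.40).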

How the data were processed

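Depth ran from 38316523 to 56256979 counts on genes per library, all from rRNA-depleted total RNA. The authors deposited counts, whole and not normalized, in 1 table with the position, strand and summed exon length of each gene. Per the methods, Trim_Galore trimmed the reads, those under Phred 25 were dropped, Hisat2 aligned the pairs to GRCh38, and featureCounts counted them on genes of GENCODE release 28. The submitters' processing notes name hg38, HISAT2 and DESeq2, and the strand setting is not given in the sources used here. Reads that match several places equally are not counted by featureCounts by default, which lowers the counts of genes with nuclear copies.

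Of 60662 lines, 3 of 1 gene split over lines were left out. Samples were grouped by their treatment labels. The members and lists were chosen with earlier results of these data known. After filterByExpr and TMM, each experiment was fitted alone with the quasi-likelihood test of edgeR 4.0.16 (two-sided, in R 4.3.3 with limma 3.58.1), with Benjamini-Hochberg adjustment over all genes tested. SE was the absolute log2 fold change over the square root of F. Shares have Wilson 95% intervals. Named were all chrM mRNA and rRNA genes, tRNA genes with a mean count of at least 100 and, of the nuclear mitochondrial lists, the 3 largest increases and 3 largest decreases per comparison among changed genes with a mean normalized count above 100 and groups without overlap. Only MT-TW and MT-TT reached that count among the tRNA genes. The other tRNA genes named, MT-TQ and MT-TP among them, were named outside this rule. Of the abundant noncoding RNAs and nuclear copies, genes with a mean count of at least 1000 could be named.

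Stretches of 100 bases were compared with the nuclear chromosomes of hg38. The sequences of MT-CO1 and of its nuclear copy are not reported here. Each fit was tested on simulated data with 200 changed genes and a dispersion of 0.03. There edgeR recovered 162 among 20561 genes in the overexpression design, with 4 unchanged genes called. It recovered 158 among 19738 in the knockdown design, with 9, and 125 among 21701 for the difference of effects, with 7. In the libraries the square root of the dispersion was 0.0565, 0.0613 and 0.0596 in that order. The simulated 0.03 is the dispersion itself, not its square root, and was thus far above that of the libraries. Of all genes tested, 60.8% changed with overexpression and 24.3% in the knockdown. Recovery with such shares of changed genes was not tested. Alternatives were DESeq2 1.42.0, RLE and upper quartile factors, total counts, scaling by the 13 chrM mRNA genes or by nuclear genes without ZMYND8, no filter, a single fit of the 8 libraries, a replicate block and leaving out each library in turn.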

Additional observations from a re-analysis of the deposited data

Results flagged for a closer look

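The effect of overexpression and that of knockdown differed, by edgeR's test of the difference over all 8 libraries, for 12 of the 33 chrM genes tested, and for 49.0% of all genes tested. The log2 difference, overexpression effect minus knockdown effect, was −0.61 for MT-ND1, −0.83 for MT-ND2, −0.90 for MT-ND3, −1.29 for MT-ND4L, −0.53 for MT-ND4, −0.62 for MT-ND5 and −1.29 for MT-ND6, which are the complex I genes. It was −0.50 for MT-CO2 of complex IV and −0.66 for MT-ATP6 of the ATP synthase. Of the tRNA genes, MT-TW had −3.67, MT-TS1 −1.05 and MT-TE −1.76, and these rest on few counts: MT-TW had 5 and 6 in the parental libraries and 0 and 1 with overexpression, and MT-TE had 7 and 17 against 6 and 5. Neither MT-TW nor MT-TE had enough counts to be tested in the overexpression experiment alone.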

How the results depend on the processing

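The libraries number 2 per group, and in the overexpression experiment 19 of the 37 chrM genes, both rRNA genes among them, had too few counts to be tested. With all 8 libraries in 1 fit, 11 chrM genes changed with overexpression (1 higher, 10 lower, 4 called). The higher one was the tRNA gene MT-TM, with 0 and 0 counts in the parental libraries and 1 and 4 with overexpression. Of chrM genes changed with overexpression (6 in the report), 12 passed without the filter on low counts and 0 with scaling by the 13 mRNA genes (0 called). With its large standard errors, the latter run could hardly pass changes of this size. None was called with total counts, and 4 to 13 changed (0 to 2 called) when 1 library was left out. For the knockdown (7 in the report), 4 passed with all 8 libraries in 1 fit, 3 without the filter and 3 with scaling by the mRNA genes, and 1 to 17 when 1 library was left out. In the knockdown, 1 gene was called, as lower, with scaling by the mRNA genes, with total counts and with upper quartile factors, each time the tRNA gene MT-TY. The difference of effects (12 in the report, 5 called) passed for 7 genes with DESeq2, for 1 with scaling by the mRNA genes (1 called) and for 6 with total counts (2 called), and for 5 to 15 (2 to 6 called) when 1 library was left out. The cause of these shifts was not tested.

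Over all genes tested, replicate numbers did not pair the libraries. The differences between replicates 1 and 2 of the groups had a correlation of 0.00599 in the overexpression experiment and −0.0129 in the knockdown experiment. The chrM share, however, was higher in replicate 2 of both groups of the overexpression experiment (0.1097% and 0.163% in parental cells, 0.128% and 0.168% with overexpression). In the knockdown experiment it was lower in replicate 2 of KD control and higher in replicate 2 of knockdown. With the block, the SE of MT-CO1 in the overexpression comparison went from 0.17 to 0.0585. With the replicate number as a block, 11 chrM genes changed in each comparison, all lower with overexpression and all higher in the knockdown, and 14 for the difference. These 11 held all 6 and all 7 of the report.

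In the overexpression comparison, MT-CO1, MT-CO3 and MT-TT turned to 0.0936, 0.0767 and 0.122 with scaling by the mRNA genes, to 0.21, 0.21 and 0.18 with total counts (MT-ND1 to 0.0069) and to 0.0268, 0.0295 and 0.00374 with upper quartile factors. In the knockdown, scaling by the mRNA genes gave −0.0295 for MT-CO1, −0.0194 for MT-ATP6, −0.0508 for MT-CO3, −0.0147 for MT-ND4, −0.0331 for MT-ND5, −0.0137 for MT-ND6 and −0.13 for MT-CYB. For the difference of effects, MT-CO1, MT-CO3 and MT-RNR1 turned to 0.12, 0.13 and 0.20 with that scaling and to 0.11, 0.13 and 0.12 with total counts, settings in which the median over all genes shifted by 0.305 and 0.317.

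When 1 library was left out, log2 values with overexpression ran from −0.35 to 0.29 for MT-CO1 (which passed edgeR's test in both directions, without parental replicate 1 and without parental replicate 2), −0.25 to 0.16 for MT-CO3, −0.58 to 0.0204 for MT-CYB, −0.51 to 0.0501 for MT-ND1 and −0.45 to 0.47 for MT-TT, and in the knockdown from −0.0425 to 0.16 for MT-CYB. The difference of effects ran from −0.50 to 0.14 for MT-CO1, −0.39 to 0.0239 for MT-CO3, −0.49 to 0.0753 for MT-RNR1 and −0.78 to 0.14 for MT-TT. The log2 ratio of the chrM share ran from −0.14 to 0.43 with overexpression, where it was −0.14 with TMM library sizes, from 0.0561 to 0.22 in the knockdown and from 4.17 to 4.74 between the control groups. Without division by length, MT-CO1 had 66.0% of the mRNA counts in the parental cells and 30.1% in KD control.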
